A study of Mus musculus with 20 samples.

Results

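Binding of Sox17 and of Oct4 (Pou5f1) was compared region by region in F9+RA cells, mouse F9 embryonal carcinoma cells given 1 µM retinoic acid (RA), which the labels call differentiated to a primitive endoderm-like state. The material was a pair of peak lists from chromatin immunoprecipitation and sequencing (ChIP-seq), 39768 Sox17 peaks and 84196 Oct4 peaks, together 123964 of the 765133 peaks in the 18 lists of the series. Peaks of the lists were paired where their midpoints lay within 200 bp of each other and, as a wider criterion, where their intervals overlapped by at least 1 bp. Each list came from 1 library without a replicate, so the shares below describe these libraries, and their exact 95% binomial (Clopper-Pearson) intervals cover counting error only.

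Sox17 was pulled down from F9+RA cells with an antibody against the protein itself (R&D, AF1924), and Oct4 with one against Oct4 (Santa Cruz, SC8628). Untreated F9 cells, with 1 Oct4 library (64582 peaks), served as the reference for RA. The other libraries came from KH2 embryonic stem (ES) cells given doxycycline at 1 µg/ml to overexpress 1 of 4 tagged proteins, namely Sox17, Sox2KE, Sox17EK or Sox2. Sox17 and Sox2KE carry a glutamate, and Sox17EK and Sox2 a lysine, at the same place of the DNA-binding domain. There were 8 Sox libraries of ES cells, 2 for each protein, and 7 Oct4 libraries of the same lines, 2 for each line except 1 for the Sox17 line. Labels of the ES libraries name the V5 tag antibody, alone for Sox2KE, Sox17EK and Sox2, beside the Sox17 antibody for Sox17, and beside the Oct4 antibody for Oct4. Peak lists carry no expression values, so the primitive endoderm-like label could not be checked against marker genes.

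Sox17 is an HMG-box transcription factor and a regulator of primitive endoderm, the extraembryonic tissue that RA-treated F9 cells are used to model. Oct4 is a POU-domain factor best known for maintaining pluripotent cells, where it partners with Sox2 on adjoining Sox and Oct motifs. Sox17 and Oct4 can also bind DNA side by side, with a closer spacing of the motifs than Sox2 and Oct4 use, and the lysine or glutamate lies where the Sox domain meets Oct4.

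The lists of the series held 5836 to 84196 peaks, so the Oct4 list of F9+RA cells was the longest of all. Each peak carries a score by the authors, which rose with the strength of the peak from a floor of about 50. The median score was 67.8 for Sox17 and 94.6 for Oct4 in F9+RA cells, and 119 for Oct4 in untreated F9 cells. Scores order peaks within a list and are not comparable between lists, since the read depth is unknown. Median peak widths were 386 bp for Sox17 and 487 bp for Oct4 in F9+RA cells, and 699 bp for Oct4 in untreated F9 cells.

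Oct4 lay at most Sox17 peaks, whereas Sox17 lay at a minority of the Oct4 peaks. Of the 39768 Sox17 peaks, 14676 (36.9%, interval 36.4 to 37.4) had an Oct4 midpoint within 200 bp, and these are called co-centred. Another 6441 (16.2%) overlapped an Oct4 peak whose midpoint was farther away, and these are called offset. Joint sites of either kind thus made up 21117 Sox17 peaks (53.1%, 52.6 to 53.6), and the remaining 18651 (46.9%) are called Sox17-alone. Seen from the other list, 14666 of the 84196 Oct4 peaks were co-centred (17.4%), 5526 were offset (6.56%), 20192 were joint by either criterion (24.0%) and 64004 were Oct4-alone (76.0%). Where the Sox17 peaks were moved by 10 kb to either side, 4.44% became co-centred with Oct4 and 11.9% joint. Moving the Oct4 peaks gave 2.10% and 5.63%.

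The same Sox17 peaks met Oct4 of untreated F9 cells less often. In F9+RA cells the shares were 36.9% co-centred and 53.1% joint, and with the Oct4 list of untreated F9 cells they were 23.8% co-centred and 43.0% joint. Moving the Sox17 peaks by 10 kb gave 3.20% and 11.2% with the untreated list. The untreated list is shorter than that of F9+RA cells and its peaks are wider, and the part of this in the difference was not tested. Pairing was close to 1 to 1 at the midpoints, where 15 Oct4 peaks had more than 1 co-centred Sox17 peak. The 200 bp limit favours this, since it leaves little room for another peak of the same list. By overlap 1672 Oct4 peaks covered 2 or more Sox17 peaks, with at most 4, and 890 Sox17 peaks overlapped 2 or more Oct4 peaks.

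The share of Sox17 peaks with Oct4 followed the strength of the Sox17 peak. When the Sox17 list was cut into 10 equal rank bins (deciles) by score, 95.7% of decile 1, the strongest, was joint with Oct4 (interval 95.0 to 96.3, 3977 peaks with scores of 161.58 and more). The share was 87.8% in decile 2, 72.1% in decile 3, 57.9% in decile 4 and 50.3% in decile 5. From decile 6 to decile 10 it was 40.2%, 35.1%, 32.3%, 31.8% and 27.8%. The order thus held at every step. Peaks moved by 10 kb were joint at 17.5% in decile 1 and 9.03% in decile 10, so their level also rose with strength. Decile 10 was still above its moved peaks. Co-centred peaks alone made up 72.4% of decile 1 and 17.8% of decile 10.

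Near the top of the Sox17 list almost no peak lacked Oct4. Oct4 of F9+RA cells lay at 98 of the 100 strongest Sox17 peaks (98.0%, interval 93.0 to 99.8), at 495 of the strongest 500 (99.0%) and at 983 of the strongest 1000 (98.3%). Oct4 of untreated F9 cells lay at 52 of the same 100 peaks (52.0%, interval 41.8 to 62.1), at 269 of the 500 (53.8%) and at 566 of the 1000 (56.6%). For the 5000 strongest peaks the shares were 94.8% in F9+RA cells and 69.0% in untreated F9 cells. With the untreated list the top of the ranking was therefore not where Sox17 met Oct4 most often. Its joint share was 67.9% in decile 1 and 70.9% in decile 2 before it declined to 24.0% in decile 10. The gap between the Oct4 lists of F9+RA and untreated F9 cells was 27.8 percentage points in decile 1 and 3.75 points in decile 10.

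**Figure D1:**
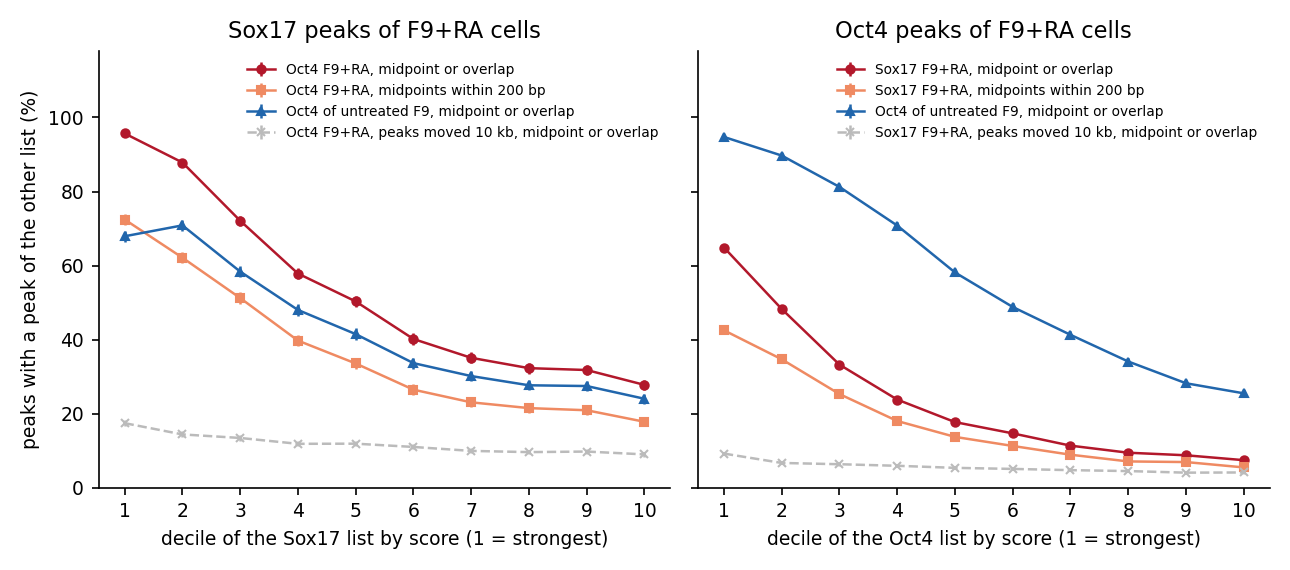
Percent of peaks (y axis) with a peak of the other protein, by decile of the list's own score (x axis, 1 strongest), for the Sox17 list and the Oct4 list of F9+RA cells, with exact 95% intervals, beside the share with Oct4 of untreated F9 cells and the level of peaks moved by 10 kb. The joint share declines over the deciles in both lists, with 95.7% in decile 1 and 27.8% in decile 10 for Sox17, and 64.9% and 7.47% for Oct4.

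The Oct4 list showed the same order with lower shares. Sox17 was joint with 64.9% of Oct4 decile 1, 48.3% of decile 2, 33.3% of decile 3, 23.8% of decile 4 and 17.7% of decile 5. It was 14.7%, 11.4%, 9.48%, 8.79% and 7.47% in deciles 6 to 10. For moved peaks it was 9.25% in decile 1 and 4.15% in decile 10. Among the 100 strongest Oct4 peaks 91 had a Sox17 peak (91.0%, interval 83.6 to 95.8), but among the strongest 500 the share was 75.8% and among the strongest 1000 it was 72.2%. A strong Oct4 peak without Sox17 was thus common, with 2957 such peaks in Oct4 decile 1, whereas Sox17 decile 1 held 172 peaks without Oct4.

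Scores rose together within pairs. Across the 14676 co-centred pairs the Spearman correlation of Sox17 and Oct4 score was 0.416, and across the offset pairs it was 0.286, given as a description over sites of 1 library each. The median Oct4 score of the co-centred partner was 402 for Sox17 decile 1 and 116 for decile 10. An Oct4 partner from the strongest Oct4 decile stood beside 51.5% of the co-centred Sox17 peaks of decile 1 and beside 8.74% of those of decile 10. Sox17 scores had a median of 87.9 at co-centred sites (quartiles 64.2 and 140), 79.6 at offset sites and 59.7 at Sox17-alone sites. Oct4 scores had medians of 199 at co-centred sites, 341 at offset sites and 81.9 at Oct4-alone sites.

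Oct4 midpoints lay close to those of their Sox17 partners. The median distance between midpoints of co-centred pairs was 67 bp (quartiles 29.5 and 117.5), and over the 10 Sox17 deciles this median stayed between 63.5 and 71.75 bp, within a class whose distance cannot exceed 200 bp. Over all joint pairs, offset ones included, the median distance was shortest for the strongest Sox17 peaks, with 91.5 bp in decile 1 and 109.5 bp in decile 2, against 124 bp in decile 10 and 126.5 bp in decile 7. Of all Sox17 peaks, 14.6% had an Oct4 midpoint within 50 bp, 24.8% within 100 bp, 50.7% within 500 bp and 59.1% within 1000 bp. With Oct4 of untreated F9 cells those shares were 8.03%, 14.7%, 37.3% and 45.8%. For Sox17 peaks moved by 10 kb they were 1.09%, 2.20%, 10.7% and 18.8%. Excess over the moved peaks was thus densest at the shortest distances. The nearest Oct4 midpoint was a median of 4982.5 bp from a Sox17-alone peak, and the nearest Sox17 midpoint 10283 bp from an Oct4-alone peak.

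**Figure D2:**
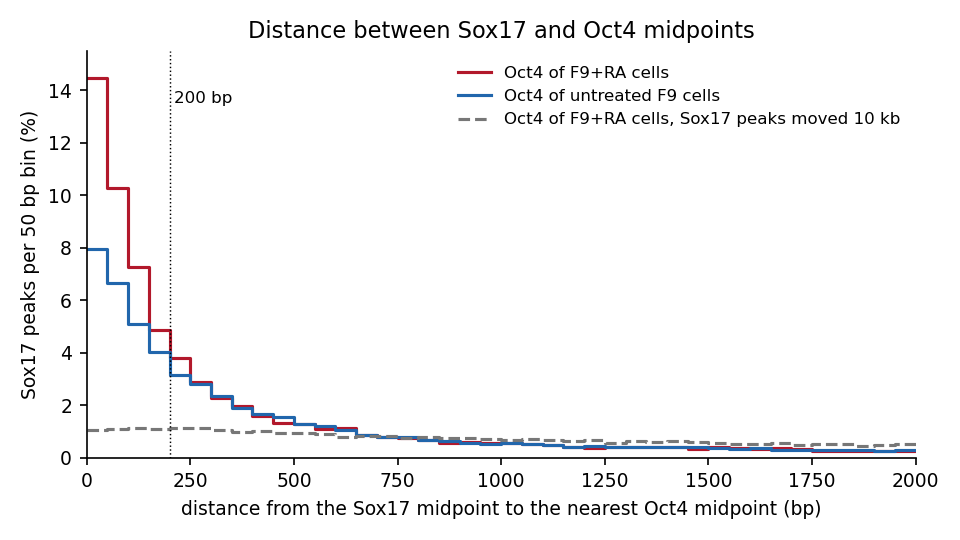
Percent of Sox17 peaks of F9+RA cells (y axis) by distance from their midpoint to the nearest Oct4 midpoint (x axis, bp, bins of 50 bp), for Oct4 of F9+RA cells, Oct4 of untreated F9 cells and moved Sox17 peaks. The first bin holds 14.5% of Sox17 peaks for Oct4 of F9+RA cells, 7.96% for Oct4 of untreated F9 cells and 1.07% for moved peaks.

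Distance was also compared for the 15512 Sox17 peaks that overlapped Oct4 both in F9+RA and in untreated F9 cells. Their median distance was 131.5 bp to Oct4 of F9+RA cells and 167.5 bp to Oct4 of untreated F9 cells. The F9+RA midpoint was the nearer at 57.6% of them and the untreated F9 midpoint at 42.2%. Oct4 peaks at these sites had median widths of 887 bp in F9+RA cells and 1140 bp in untreated F9 cells. The part of width in the difference was not tested.

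The offset share of joint pairs rose with the width of the Oct4 peak, which the definition of the class favours, since narrow peaks seldom overlap with midpoints over 200 bp apart. Where the Oct4 partner was narrower than 400 bp, 9.94% of joint Sox17 peaks were offset, against 19.4% for partners of 600 to 800 bp, 49.9% for 1000 to 1500 bp and 71.9% for 1500 bp and wider. The median midpoint distance of offset pairs was 332.5 bp, and in 80.1% of them the Sox17 midpoint still lay inside the Oct4 interval. For co-centred pairs that share was 99.3%. The Sox17 interval lay wholly inside the Oct4 interval in 51.8% of co-centred pairs, and the Oct4 interval inside that of Sox17 in 10.1%.

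Joint peaks were wider than peaks of 1 protein alone. Sox17 peaks had median widths of 483 bp at co-centred, 515 bp at offset and 322 bp at Sox17-alone sites. Oct4 peaks measured 636 bp, 990 bp and 450 bp at co-centred, offset and Oct4-alone sites. Width rose with score, and within decile 1 the Sox17 medians were 704 bp co-centred, 914 bp offset and 478 bp alone. Within decile 10 they were 331 bp, 340.5 bp and 316 bp, so that the classes hardly differed in width among weak peaks. The Oct4 medians were 981 bp, 1429 bp and 750 bp in Oct4 decile 1, and 359 bp, 422 bp and 349 bp in decile 10.

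**Figure D3:**
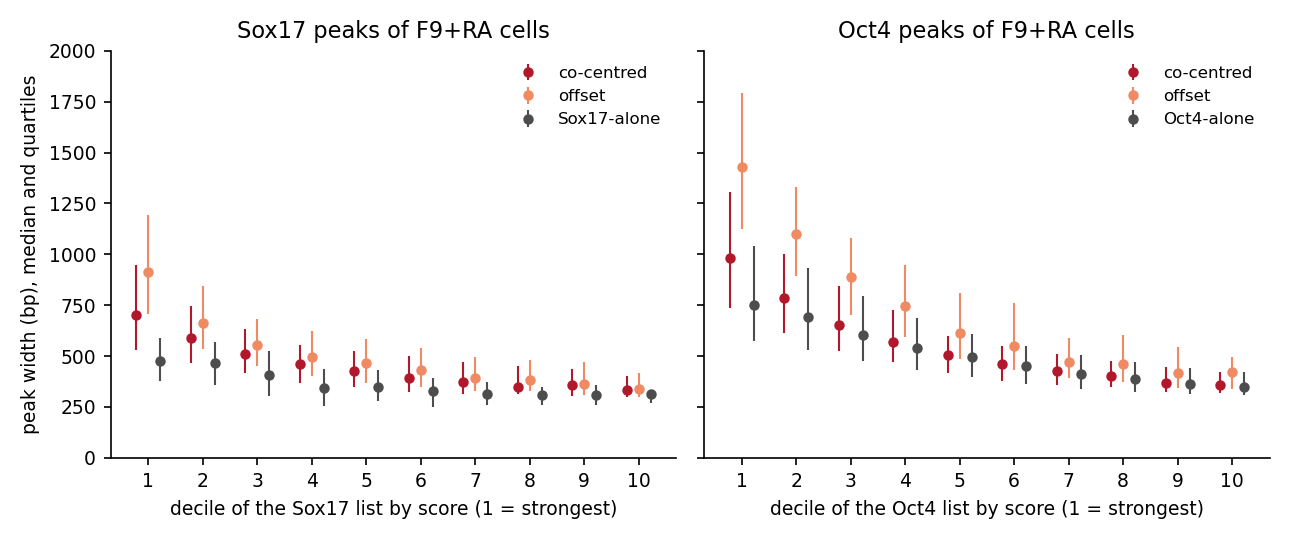
Peak width in bp (y axis, points are medians and bars the quartiles) by score decile (x axis, 1 strongest) for co-centred, offset and alone peaks of the Sox17 list and of the Oct4 list. In decile 1 co-centred Sox17 peaks have a median width of 704 bp and Sox17-alone peaks 478 bp, and in decile 10 331 bp and 316 bp.

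The joint share of Sox17 peaks differed by width within each score decile and by score within each width group. Among Sox17 peaks cut into 5 equal groups by width, 20.1% were joint in the narrowest group (126 to 287 bp), then 33.3%, 51.1% and 71.5%, and 89.9% in the widest (590 to 5988 bp). Within the narrowest group the joint share was 70.6% in score decile 1 (51 peaks, interval 56.2 to 82.5) and 17.1% in decile 10 (1369 peaks). Within the widest group it was 98.4% in decile 1 (2742 peaks) and 65.9% in decile 10 (82 peaks, interval 54.6 to 76.0). For Oct4 peaks the widest group was 53.9% joint and the narrowest 8.43%. In Oct4 decile 1 the joint share was 75.5% in the widest group and 28.1% in the narrowest. In Oct4 decile 10 it was 6.25% in the narrowest group, then 8.30%, 9.08% and 9.86%. In the widest group of that decile it was 4.96% of 121 peaks (interval 1.84 to 10.5). The share there thus rose with width over all groups but the widest. Matching by overlap favours wide peaks, and moved peaks were not counted by width group.

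Oct4 was already present in untreated F9 cells at most joint sites and at few Sox17-alone sites. Of co-centred Sox17 peaks 68.4% had an Oct4 peak in untreated F9 cells by midpoint or overlap, of offset peaks 85.1% and of Sox17-alone peaks 8.46%. The last value lies below the 11.2% found for all Sox17 peaks moved by 10 kb. Those include the joint peaks, which are wider and stronger than Sox17-alone peaks, so the sets are not alike. By midpoint alone the values were 49.1%, 23.4% and 4.10%. Lack of Oct4 at Sox17-alone sites in F9+RA cells went with lack of an Oct4 peak in untreated cells. The definition of the class favours this, since the Oct4 lists of F9+RA and untreated F9 cells share many sites.

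How often an Oct4 peak of F9+RA cells had no counterpart in untreated F9 cells depended on class and, more strongly, on peak strength. Pooled over all ranks, an Oct4 peak of untreated F9 cells was missing at 31.6% of co-centred Oct4 peaks, 15.8% of offset Oct4 peaks and 47.6% of Oct4-alone peaks, a difference of -16.1 points between co-centred and Oct4-alone. Within the strongest Oct4 decile the order was the other way round. There 9.72% of 3581 co-centred peaks (interval 8.77 to 10.7) and 1.72% of 2957 Oct4-alone peaks (1.29 to 2.26) had no untreated counterpart, a difference of 7.99 points. In decile 2 the shares were 16.7% co-centred and 6.96% Oct4-alone, and in decile 5 they were 48.5% and 41.3%. From decile 7 on the co-centred share was the lower, with 57.1% against 59.4% Oct4-alone, and 72.8% against 74.9% in decile 10. The mean difference over the 10 deciles was 4.15 points. The Oct4-alone class held 2957 of the 8420 peaks of decile 1 and 7790 of the 8419 peaks of decile 10, so weak peaks weigh more in its pooled share.

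In bins of both Oct4 rank and Oct4 width with at least 20 peaks of each class, a split added after the data were seen, co-centred peaks lacked an untreated counterpart more often in 32 of 47 bins. Within the 5 strongest deciles this held in 21 of 25 bins. In decile 1 the difference was 40.0 points for the narrowest peaks and 2.69 points for the widest. Joint pairs were also grouped by Sox17 strength. The share of pairs whose Oct4 peak had no untreated counterpart was 29.4% in Sox17 decile 1 (interval 28.0 to 30.9). That share was 21.0% in decile 2 and 23.8% in decile 3. It was 27.8% in decile 6 and 28.7% in decile 10, so the strongest and the weakest pairs had the higher values. A missing peak means only that none reached the list of untreated F9 cells.

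**Figure D4:**
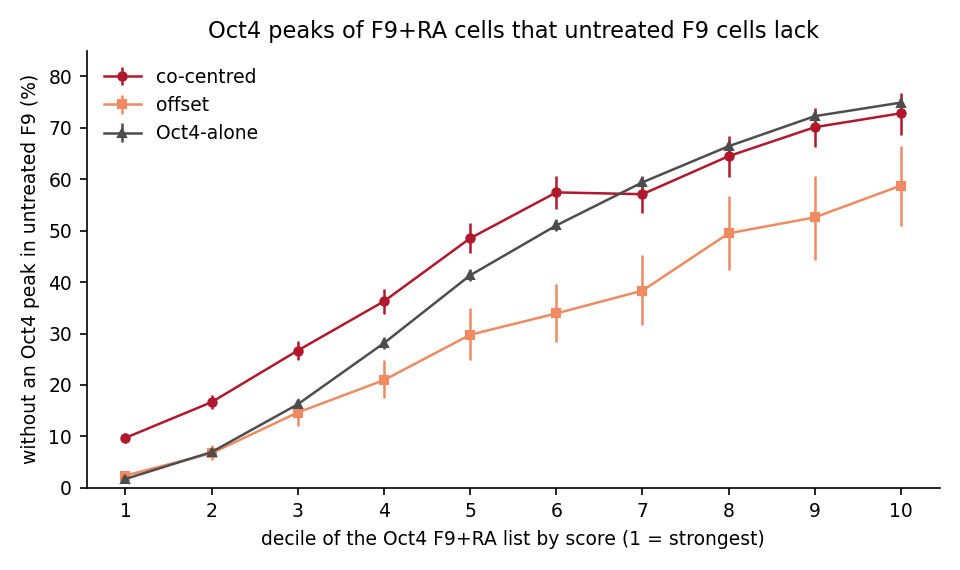
Percent of Oct4 peaks of F9+RA cells without an Oct4 peak in untreated F9 cells (y axis) by score decile of the Oct4 list (x axis, 1 strongest), for co-centred, offset and Oct4-alone peaks, with exact 95% intervals. Co-centred peaks lie above Oct4-alone peaks in the strong deciles (9.72% and 1.72% in decile 1) and slightly below them in the weak ones (72.8% and 74.9% in decile 10).

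The strongest co-centred regions are given next by position, in build mm9 and counting from 1. Genes are not named, because the annotation at hand belongs to another build. The best mean rank belonged to chr8:129139177-129140564, where Sox17 scored 2612 and Oct4 3122 in F9+RA cells with midpoints 91 bp apart, and Oct4 scored 143 in untreated F9 cells. In ES cells this region had peaks of Sox17 (1765 in replicate A and 1270 in B) and of Oct4 in the Sox17 line (967). It also had 1 Oct4 peak of 141 in the Sox2KE line, and no peak of the other 3 Sox proteins. Its ES Sox peaks were thus those of Sox17 only.

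Further co-centred regions had Oct4 among the top scores in F9+RA cells and no Oct4 peak in untreated F9 cells. Several Oct4 peaks share the score of 3100, and their ranks among themselves follow position and not strength. At chr4:111155415-111156628 Sox17 scored 2758 and Oct4 3100, with midpoints 21.5 bp apart. The only ES peaks there were those of Sox2KE (52.7 in A and 111 in B) and 1 Oct4 peak of the Sox2KE line (108). At chr3:121642616-121643689 Sox17 scored 1993 and Oct4 3100 at a distance of 90 bp, and the ES peaks were those of Sox17 alone, at 71.6 and 53.8. The region chr4:100337330-100338027 had scores of 1712 for Sox17 and 3100 for Oct4, and Sox17 peaks of 323 and 91.3 in ES cells with Oct4 of the Sox17 line at 371. The ES Sox peaks at these 3 regions were all of glutamate proteins.

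In the last pair of named co-centred regions untreated F9 cells had an Oct4 peak that scored below the median of its list (119). At chr14:99663515-99664283 Sox17 scored 3100 and Oct4 3087 with midpoints 34 bp apart, against an Oct4 score of 111 in untreated F9 cells. At chr12:31913613-31915057 the scores were 1817 for Sox17 and 3100 for Oct4, against 59.9 for Oct4 in untreated F9 cells. In ES cells Sox17 had peaks of 125 and 165 at the region on chromosome 14, and Sox2KE replicate B one of 62.9. Sox2KE had peaks of 238 and 946 at the region on chromosome 12, and Oct4 of the Sox2KE line peaks of 2638 and 762. None of these 6 co-centred regions had a peak of Sox17EK or Sox2 in ES cells. Each of these libraries also lacked a midpoint at most co-centred sites. That match is stricter than the overlap used for the named regions, and it covers sites of all ranks. By midpoints in whole lists, Sox17EK lay at 19.4% and 12.6% of all co-centred sites and Sox2 at 15.8% and 14.2% (replicates A and B). Sox17 lay at 16.3% and 8.46% of them, and Sox2KE at 23.7% and 45.6%.

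The 4 strongest offset regions all had Oct4 in untreated F9 cells, and they varied in width and in their ES peaks. At chr17:35640606-35643364 Sox17 and Oct4 both scored 3100 in F9+RA cells with midpoints 800 bp apart, the Oct4 peak being 2759 bp wide and the Sox17 peak 1105 bp. Oct4 scored 3100 in untreated F9 cells too, and all 8 Sox and 7 Oct4 libraries of ES cells had a peak there. At chr5:107538967-107540176 the scores were 2001 for Sox17 and 2840 for Oct4 at 239.5 bp, and 534 for Oct4 in untreated F9 cells. The remaining offset regions lay on distal chromosome 12, at chr12:113513718-113516910 (Sox17 1616, Oct4 3100, distance 434.5 bp) and chr12:112965177-112967780 (1492, 3100 and 316.5 bp). Oct4 of untreated F9 cells scored 1137 and 703 at them. In ES cells the first of these had peaks of Sox17 (304 and 338) and Sox2KE (173 and 207), and the second of Sox2KE (473 and 1032). Neither had a peak of Sox17EK or Sox2, as at the named co-centred regions. The region on chromosome 5 had Sox17 peaks of 766 and 550 and 1 Sox17EK peak of 82.2. Shares over all offset sites were taken by midpoints, a stricter match than the overlap used for the named regions. In whole lists, Sox17EK lay at 14.5% and 10.6% of all offset sites and Sox2 at 9.32% and 9.08% (replicates A and B). Sox17 lay at 10.7% and 4.86% of them, and Sox2KE at 15.7% and 27.0%.

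Regions near the 200 bp limit are given as examples from both sides of it. Just inside lay chr12:112907706-112911454, with midpoints 191.5 bp apart (Sox17 547, Oct4 3100, untreated F9 Oct4 3100), and chr18:75503695-75505548 at 196 bp (411, 1341 and 674). Just outside lay chr2:168031453-168033281, with scores of 350 for Sox17, 2142 for Oct4 and 1967 for Oct4 of untreated F9 cells, and chr8:8942809-8943582 at 204 bp. The last of these had Sox17 at 1032 and Oct4 at 1578 in F9+RA cells and no Oct4 peak in untreated F9 cells. It was also the narrowest of the 4, at 774 bp, with 1 ES Sox and 2 ES Oct4 libraries holding a peak, whereas the pair just inside the limit had peaks in 6 ES Sox and 7 ES Oct4 libraries each.

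The strongest Sox17 peaks without Oct4 ranged from regions held in all ES libraries to regions found in no other list. First among them, chrX:103381947-103382810, scored 1206 and had no Oct4 peak in F9+RA or untreated F9 cells, yet it had a peak in all 8 Sox and all 7 Oct4 libraries of ES cells, with scores of 264 to 3100. The second, chr12:30511721-30512745, scored 1018 and had no peak in any other list. The region chr4:14021815-14022496 scored 499 and also had no peak elsewhere. At chr2:135977991-135978455 the Sox17 score was 490, Oct4 of untreated F9 cells scored 52.7, and all 8 ES Sox libraries and 3 ES Oct4 libraries had a peak. At chr6:39512566-39513203 (score 460) Oct4 of untreated F9 cells scored 57.0, and 4 ES Sox libraries had a peak. At chr8:23984236-23984949 (score 421) the only ES Sox peak was that of Sox2KE replicate B, at 375.

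The strongest Oct4 peaks without Sox17 were sites held in every Oct4 library. They were chr11:30649557-30650747 (Oct4 score 3154 in F9+RA cells, 3100 in untreated F9 cells), chr11:112731396-112732554 (3117 and 3204), chr8:24672213-24673397 (3100 in both), chr14:86795650-86796423 (3004 and 3100), chr2:157012259-157012682 (2878 and 3109) and chr8:111246373-111247466 (2837 and 3100). All 6 had peaks in the 7 Oct4 libraries of ES cells. Sox2, Sox17EK and Sox2KE also had peaks at each of them in both replicates, and Sox17 of ES cells in both replicates at 4 of them and in replicate A alone at the other two. At these sites the Sox proteins expressed in ES cells were thus found, while the Sox17 list of F9+RA cells had no peak. That was common among strong Oct4-alone sites. In Oct4 decile 1, any ES Sox library had a peak at 90.7% of Oct4-alone sites, and any ES Oct4 library at 97.1%.

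The same contrast between the alone classes held over the whole lists. A peak of any of the other 16 lists was missing at 17.3% of co-centred sites, 7.82% of offset sites, 78.4% of Sox17-alone sites (14614 of 18651) and 33.1% of Oct4-alone sites. The median number of other lists with a peak was 7 at co-centred, 9 at offset, 0 at Sox17-alone and 2 at Oct4-alone sites. Among Sox17-alone peaks of decile 1, 48.8% were in no other list (84 of 172, interval 41.2 to 56.6), against 82.7% in decile 10. Among Oct4-alone peaks the share was 0.609% in Oct4 decile 1 and 56.7% in decile 10. Sox17-alone sites lack Oct4 of F9+RA cells by definition, and many of the other lists are of Oct4. The part of this in the contrast was not tested. Any ES Sox library had a peak at 71.7% of co-centred, 80.4% of offset, 14.4% of Sox17-alone and 44.8% of Oct4-alone sites. The other lists come from ES cells, except 1 for Oct4 of untreated F9 cells, so peaks found once were not checked in a replicate.

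Sox proteins of ES cells were compared at the classes to ask whether the residue at the Oct4 contact went with the kind of F9+RA site they met. For each library the share of a class with a midpoint within 200 bp of 1 of its 5836 strongest peaks was taken, 5836 being the length of the shortest list. At co-centred sites the shares were 10.6% and 8.46% for Sox17 and 5.18% and 6.59% for Sox2KE, against 4.52% and 4.10% for Sox17EK and 3.53% and 4.05% for Sox2 (replicates A and B). All 4 glutamate libraries lay above all 4 lysine libraries. Their means were 7.72% ± 2.37 with glutamate and 4.05% ± 0.405 with lysine (SD, n = 4 each), a difference of 3.67 points by an exact two-sided permutation test with p = 0.0286, adjusted p = 0.0429 by Benjamini-Hochberg over 3 classes.

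At Oct4-alone sites the order was the opposite. Sox17 had 2.44% and 2.48% and Sox2KE 2.28% and 1.63%, against 5.13% and 4.24% for Sox17EK and 3.61% and 3.94% for Sox2. The means were 2.21% ± 0.392 with glutamate and 4.23% ± 0.652 with lysine (SD, n = 4 each), a difference of -2.02 points (exact two-sided permutation p = 0.0286, adjusted p = 0.0429), and again the sets did not overlap. At Sox17-alone sites all shares were low, with 0.263% and 0.327% for Sox17, 0.493% and 0.327% for Sox2KE, 0.0858% and 0.129% for Sox17EK, and 0.214% and 0.273% for Sox2. The means of 0.353% ± 0.0986 with glutamate and 0.176% ± 0.0844 with lysine (SD, n = 4 each) differed by 0.177 points, which did not pass the threshold (exact two-sided permutation p = 0.0571, adjusted p = 0.0571). Offset sites, which were not tested, had shares of 6.77% and 4.86% for Sox17 and 2.84% and 4.98% for Sox2KE, against 2.70% and 2.62% for Sox17EK and 1.68% and 2.20% for Sox2.

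The value of 0.0286 is the smallest that 4 against 4 libraries can give. That glutamate libraries meet the Sox17 list of F9+RA cells more often was already known when the classes were drawn. The co-centred value is therefore no independent support. Oct4-alone sites are by definition without a peak of that Sox17 list, so their value is no independent support either. Pooled over ranks, the difference held in sign within each Sox form. At co-centred sites it was 5.24 points for Sox17 minus Sox17EK and 2.09 points for Sox2KE minus Sox2. At Oct4-alone sites it was -2.23 and -1.82 points. It was not even over ranks. At co-centred sites of Sox17 decile 1, Sox2KE had 9.23% and 14.3% against 5.87% and 6.59% for Sox2. In Sox17 decile 10, Sox2KE had 2.26% and 2.54% against 2.26% and 2.82% for Sox2, so these libraries overlapped there. Both libraries of a protein come from 1 line, so that residue and line cannot be told apart beyond the 4 proteins. The test counted these libraries as independent units, so its p-values describe the libraries and not the residue. Sox17 libraries also name another antibody. Using whole lists of unequal length, the difference at co-centred sites was 7.99 points with an exact permutation p of 0.429, and at Oct4-alone sites -2.98 points with p = 0.514. With the replicate letter as a block, each class had an exact permutation p of 0.0556, the smallest that this design can give. The difference between classes was not tested.

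**Figure D5:**
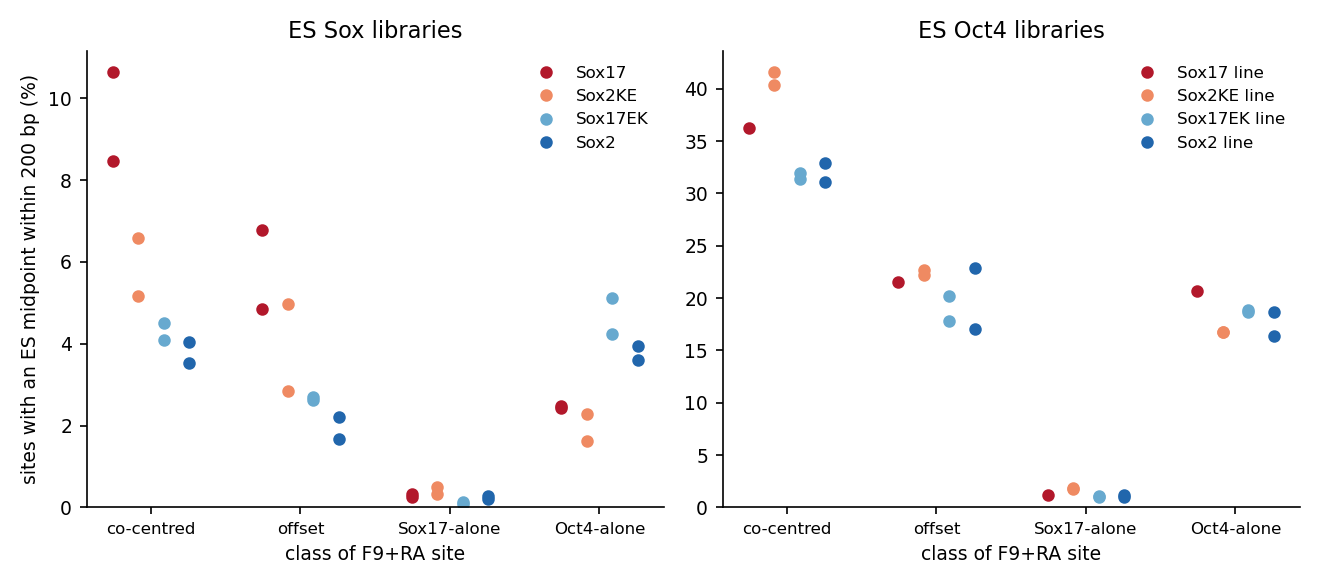
Percent of co-centred, offset, Sox17-alone and Oct4-alone sites of F9+RA cells (y axes) with a midpoint within 200 bp among the strongest peaks of each ES Sox library (left) and ES Oct4 library (right), with glutamate proteins left of lysine proteins and 1 point per library. Glutamate Sox libraries lie above lysine Sox libraries at co-centred sites (means 7.72% and 4.05%) and below them at Oct4-alone sites (2.21% and 4.23%).

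Oct4 libraries of ES cells were described in the same way by their 32848 strongest peaks, without a test. At co-centred sites the share was 36.3% in the Sox17 line and 41.6% and 40.3% in the Sox2KE line, against 32.0% and 31.4% for Oct4 beside Sox17EK and 31.1% and 33.0% beside Sox2. The glutamate lines thus had the higher values, without overlap. At offset sites the lines overlapped, with 21.5% for the Sox17 line and 22.2% and 22.7% for the Sox2KE line, against 17.8% and 20.2% for Oct4 beside Sox17EK and up to 22.9% beside Sox2. At Sox17-alone sites the shares were 1.19% in the Sox17 line and 1.79% and 1.89% in the Sox2KE line, against 0.976% and 1.08% for Oct4 beside Sox17EK and 1.03% and 1.17% beside Sox2. At Oct4-alone sites they were 20.7% in the Sox17 line and 16.8% in both Sox2KE libraries, against 18.6% and 18.9% for Oct4 beside Sox17EK and 16.3% and 18.7% beside Sox2, so the groups overlapped. Because the labels also name V5, peaks of the tagged Sox protein in these libraries cannot be told apart from those of Oct4.

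At equal list length the pairing of Sox17 and Oct4 in F9+RA cells lay within the range of the pairs of ES cells. Among the 5000 strongest peaks of each list, 23.6% of Sox17 peaks of F9+RA cells had an Oct4 midpoint of the same cells within 200 bp. With Oct4 of untreated F9 cells the share was 9.06%. In ES cells the share with Oct4 of the same line was 34.4% and 27.5% for Sox17, 21.7% to 39.3% for Sox2KE, 34.3% to 48.9% for Sox17EK and 38.5% to 43.3% for Sox2. The F9+RA pair thus had a lower share than every ES pair of Sox17, Sox17EK and Sox2 counted here. It lay above the lowest Sox2KE pair. Labels of the ES Oct4 libraries also name V5, so matches there may include the tagged Sox protein itself. The 5000 strongest are also most of the ES Sox17 list of replicate B (5836 peaks). They are a small part of the F9+RA lists of Sox17 (39768) and Oct4 (84196). Whether these shares differ beyond the spread of libraries could not be tested with 1 F9+RA pair.

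Neighbouring peaks and chromosomes were examined as further features of the classes. Another Sox17 peak lay within 5 kb of 47.7% of co-centred, 65.8% of offset and 34.1% of Sox17-alone peaks. Another Oct4 peak lay within 5 kb of 65.2% of co-centred, 74.5% of offset and 59.3% of Oct4-alone peaks. Joint sites were thus more often clustered than alone sites in both lists. Over chromosomes the joint share of Sox17 peaks ranged from 46.9% on chromosome 6 to 58.2% on chromosome 19, so it did not rest on a few chromosomes. That of Oct4 peaks ranged from 21.6% on chromosome 16 to 29.8% on chromosome 12. Chromosome 12 held 10.3% of all Sox17 peaks and 8.15% of all Oct4 peaks, the highest share in both lists.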

How the data were processed

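The deposited files hold 1 list of intervals for each of 18 libraries, with chromosome, start, end, peak name and a number. The number is the authors' score for a peak, whose names carry the MACS prefix per the files. It may be 10 times −log10 of a p-value, an inference from its floor near 50 that no label states. Positions are deposited by the authors in bp, on the build mm9 that the submitters' processing notes name. Interval starts were read as counting from 0, and printed positions count from 1. Which aligner, caller version, settings and control library were used is not given in the sources used here. The 2 mock libraries were not analysed here. Read depth is unknown, and only list length is known.

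Summits are not among the columns, and interval midpoints were used. A peak with several partners took the one of nearest midpoint. Rank deciles follow the score, with ties in file order. Peaks moved 10 kb to both sides gave the background. Intervals are exact (Clopper-Pearson, 95%). Differences between ES Sox libraries were tested by exact two-sided permutation over 8 libraries and adjusted by Benjamini-Hochberg over 3 classes. Since replicates A and B are not said to be separate cultures, a p-value measures the spread between these libraries only, and that spread may be technical. Named are the 6 co-centred and 4 offset pairs of best mean rank, the 6 strongest alone peaks of each list, and the 2 best pairs within 10 bp on either side of the 200 bp limit. The members, classes and tests were chosen with earlier results of these data known. Alternatives were other matching distances, overlap, equal list lengths, a score minimum, width strata, whole lists, the replicate block and leaving out each library. The matching and the permutation test were tested on simulated data. SciPy 1.17.1, pandas 2.3.3 and NumPy 2.4.6 were run under Python 3.11.15, with matplotlib 3.10.9 for the figures.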

Additional observations from a re-analysis of the deposited data

Results flagged for a closer look

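At Oct4-alone sites 1 of the 4 Oct4 libraries of ES lines with a lysine protein stood apart. Its replicate A of the Sox2 line had a peak at 16.3% of these sites, against 18.7% for replicate B of that line and 18.6% and 18.9% for the Sox17EK line. The gap to the nearest of the others took up more of the range of the 4 values than Dixon's 95% critical value allows. Chance sets apart about 1 in 20 such groups. The Oct4 values at this class were not tested, and those of glutamate and lysine lines overlap with and without this library.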

How the results depend on the processing

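Shares depended on the matching rule and on list length. The 36.9% of Sox17 peaks with Oct4 became 24.8% within 100 bp, 50.7% within 500 bp, 53.1% by overlap, 50.5% where at least 50% of the shorter interval overlapped, 27.8% at equal list lengths, 23.6% for the 5000 strongest of each list and 57.9% at scores of at least 100. The 17.4% of Oct4 peaks with Sox17 became 11.7%, 23.7%, 24.0%, 22.5%, 27.7%, 23.6% and 13.8% under the same changes in that order. Decile 1 exceeded decile 10 by 54.6 points for Sox17 (co-centred), by 67.9 with overlap and by 56.4 among peaks of medium width (the middle of 3 equal width groups). For Oct4 the difference of 37.0 points became 57.4 with overlap and 27.0 among peaks of medium width. Oct4 of untreated F9 cells at co-centred minus Sox17-alone sites, 45.0 points by midpoint, was 59.9 with overlap, 40.3 at equal list lengths and 43.6 as a mean over deciles.

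The pooled difference of -16.1 points in Oct4 peaks without an untreated counterpart (co-centred minus Oct4-alone) reversed to 4.15 as a mean over deciles, 7.99 in decile 1 and 0.857 at scores of at least 100, and was -11.7 by midpoint only. These 4 alternatives were chosen after seeing the data.

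For the tests on ES Sox libraries (glutamate minus lysine), the fit with the replicate letter as a block left the differences of 3.67, 0.177 and -2.02 points at co-centred, Sox17-alone and Oct4-alone sites as they were, with an exact permutation p of 0.0556 each. That is the smallest of its 36 assignments, so no call was possible. Replicate A minus B had different signs among the proteins (co-centred 2.17 for Sox17, -1.41 for Sox2KE, 0.416 for Sox17EK, -0.525 for Sox2). Whether samples of the same letter share more than the letter was not tested. Whole lists gave 7.99 points at co-centred (exact permutation p = 0.429), 0.965 at Sox17-alone (p = 0.657) and -2.98 at Oct4-alone sites (p = 0.514), and the cause was not tested. Overlap gave 6.57, 0.550 and -1.38 points with an exact permutation p of 0.0286 each, so Sox17-alone sites then passed before adjustment. Leaving out 1 library gave 2.69 to 4.51 at co-centred, 0.130 to 0.210 at Sox17-alone and -2.23 to -1.72 at Oct4-alone sites, where 3 against 4 libraries cannot go below 0.0571. No direction changed in these tests.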
